A study of Mus musculus with 16 samples.

Results

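The STAT genes encode the transcription factors that carry cytokine signals from the cell membrane to the nucleus, and 6 of them (Stat2, Stat3, Stat4, Stat5a, Stat5b and Stat6) are described here in mouse skin treated with inhibitors of the kinases that act on them. A probe set, the group of array probes read as 1 value, was taken where the platform's annotation gave it exactly 1 of these 6 symbols. This gave 13 of the 45101 probe sets on the array, of which 8 passed the filter on low values (a log2 value above 4 in at least 2 arrays). The 8 were 3 for Stat3, 2 for Stat6 and 1 each for Stat2, Stat5a and Stat5b, and the single probe set of Stat4 did not pass.

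In the resting cell STAT proteins lie in the cytoplasm. When a cytokine binds its receptor, Janus kinases (JAKs) on the receptor's tail add phosphate to the tail and then to a docked STAT, which pairs with another STAT, enters the nucleus and binds the promoters of target genes. In skin, STAT3 is known for its part in keratinocyte growth and hair cycling, STAT2 for the response to interferon, STAT6 for the response to interleukin-4 and interleukin-13, STAT4 for interleukin-12 signals in T and NK cells, and the STAT5 proteins for signals of growth hormone, prolactin and the interleukin-2 family. The arrays measured the mRNA of these genes and not the phosphate on their proteins, which is what a JAK inhibitor acts on directly.

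The animals were female C57/B6 mice, an inbred strain that the sample titles spell C57/B7. Every mouse had a biopsy of whole dorsal skin at 8.5 weeks of age, before treatment (day 0, 9 arrays, mice 1 to 9). The skin was then treated each day for 4 days with dimethyl sulfoxide alone (DMSO, the vehicle), Ruxolitinib or Tofacitinib, and a further biopsy of the treated skin was taken on day 5. Day-5 arrays came from mice 2 and 3 for DMSO, 4 and 6 for ruxolitinib and 7, 8 and 9 for tofacitinib. All day-5 skin therefore had both an earlier biopsy and a topical treatment, and no untreated day-5 group was analysed here. Ruxolitinib inhibits mainly JAK1 and JAK2, and tofacitinib mainly JAK1 and JAK3. Both share a pyrrolopyrimidine core, which is linked through a pyrazole in ruxolitinib and through a piperidine in tofacitinib. The labels state no dose. For mouse 7 at day 5 the sample description says ruxolitinib while its other labels say tofacitinib, and the array was placed with tofacitinib.

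Levels are the deposited log2 values, on which a difference of 1 is a doubling. Differences between groups come from a limma fit over all 20992 probe sets that passed the filter and had 1 symbol, with a standard error (SE), and "called" means an adjusted p under 0.05. The labelled tissue was checked by marker genes: the mean of 7 basal keratinocyte markers lay between 11.98 and 12.39 in the day-0 arrays, and that of 8 skeletal muscle markers between 12.42 and 13.25. Array medians lay between 3.75 and 3.94, and the highest of 27 control probe sets with no mouse target reached 2.43. In the ratio of the 3′ to the 5′ control of Gapdh, a sign of RNA quality, the day-0 arrays spanned 0.82 to 1.47 and the day-5 arrays 0.78 to 0.98 on the log2 scale.

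At day 5 most measured STAT mRNAs were lower than at day 0, in the vehicle group as well as under both inhibitors, while Stat5b was higher in the vehicle and tofacitinib groups. Of the 8 probe sets, 6 were called for DMSO against day 0 (5 lower, 1 higher), 5 for ruxolitinib (all lower) and 8 for tofacitinib (7 lower, 1 higher). The called share of all probe sets was 48.1% for DMSO, 33.1% for ruxolitinib and 48.1% for tofacitinib, and the share called lower was 25.7%, 19.0% and 25.0%. The median difference of the 8 was -0.79, -0.61 and -0.88, against -0.03, 0.00 and 0.00 over all probe sets. Day-5 arrays that all lay below the day-0 arrays were found in 25.9%, 21.6% and 16.4% of all probe sets, and in 12.4% for the 7 day-5 arrays of the 3 groups together. These 3 comparisons share the same 9 day-0 arrays, so they are not independent of each other. Among the 8 is the Stat2 probe set, which exceeded 4 in 3 arrays, all of day 0, and so passed the filter only through the group in which it was high. With no filter, 7, 5 and 9 of the 13 were called for DMSO, ruxolitinib and tofacitinib, where 32.9%, 22.1% and 34.0% of all probe sets were. When each mouse was fitted as a fixed term, 4, 2 and 7 of the 8 were called, where 27.0%, 10.6% and 36.8% of all probe sets were. With a difference of at least 1 log2 unit required as well, 2, 1 and 2 of the 8 remained, where 24.8%, 16.2% and 19.6% of all probe sets did.

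**Figure D1:**
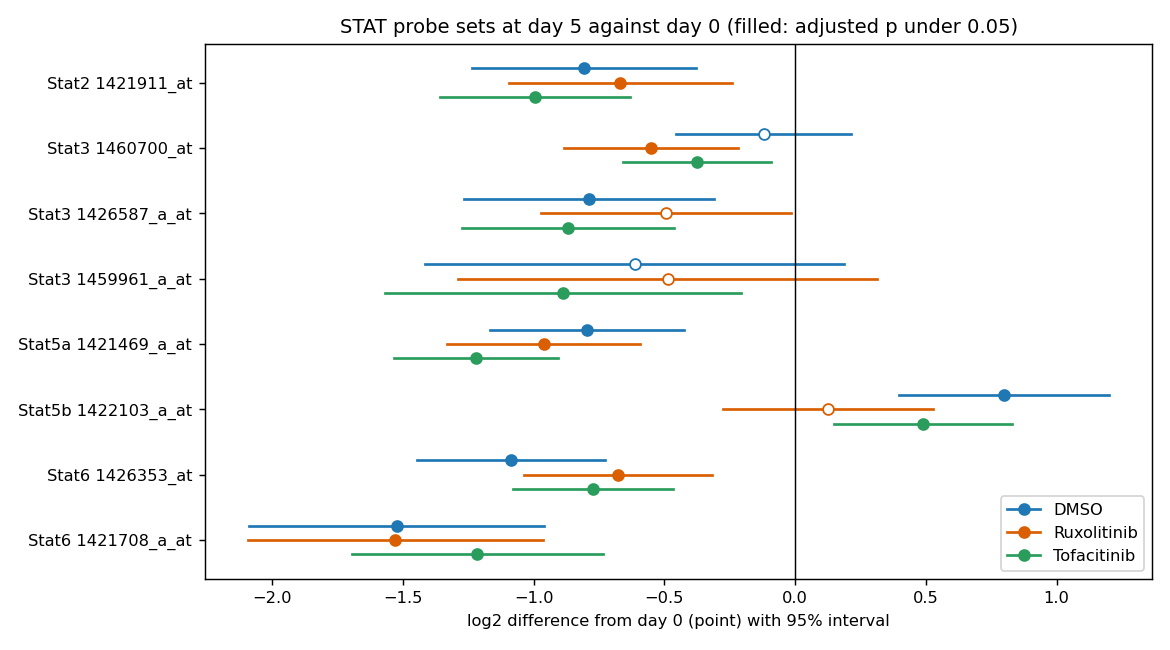
Differences from day 0 in log2 units for the 8 STAT probe sets that passed the filter, by treatment, with 95% intervals from the limma fit; filled points had an adjusted p under 0.05. Stat2, Stat5a and both Stat6 probe sets lie left of 0 in each treatment, the Stat5b points lie right of 0 (the ruxolitinib point open), and the 3 Stat3 probe sets are called in some treatments only.

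Several cell types changed their marker levels over the same days. The mean of the 7 basal keratinocyte markers fell from 11.98 to 12.39 at day 0 to 11.02 to 11.04 under DMSO, 11.04 to 11.40 under ruxolitinib and 11.06 to 11.37 under tofacitinib, and 7 of 7 were called lower in each. Of 8 T and NK cell markers, 4 passed the filter (Cd4, Cd8a, Ncr1 and Klrb1c did not) and all 4 fell in each treatment. Their mean was 5.72 to 7.24 at day 0, 3.79 to 3.82 under DMSO, 3.29 to 3.77 under ruxolitinib and 3.32 to 4.19 under tofacitinib. Cd3d and Cd3g had group means above 4 at day 0 only (5.47 and 6.99), and Cd2 was at 3.90 at day 0 and lower at day 5. Cd3d, Cd3g and Cd2 may therefore have passed the filter through day-0 arrays alone, so their falls are given as a description. All 5 endothelial markers rose in each treatment, 3 of 6 fibroblast markers rose, and 2 of 5 macrophage markers rose. Of the endothelial markers, Pecam1, Cdh5 and Kdr had day-0 means of 3.20, 2.71 and 3.01 and group means above 4 at day 5 only. They may have passed the filter through day-5 arrays alone, so their rises are given as a description. Of 8 skeletal muscle markers 4, 0 and 4 were called higher for DMSO, ruxolitinib and tofacitinib, and none lower. The median difference of the 8 was alike in the 3 treatments, at 0.38, 0.26 and 0.32. Each marker was read by its probe set of highest mean, and other kept probe sets could differ. The largest differences were 2.49, 2.40 and 2.44 for Myh4, 2.70, 2.38 and 2.44 for Myh1, and 2.15, 1.22 and 1.72 for Ckm. Those of Tnni2 stayed between 0.18 and 0.30. Of 6 suprabasal keratinocyte markers 3, 0 and 2 fell and 0, 1 and 1 rose. The mean of 4 adipocyte markers was 5.57 to 10.52 at day 0, 10.84 to 10.93 under DMSO, 10.95 to 11.31 under ruxolitinib and 10.85 to 11.42 under tofacitinib. Only 1, 1 and 2 of the 4 were called higher, and none lower. Over all tested genes, each by its probe set of highest mean, 21.5%, 12.1% and 21.9% were called higher for DMSO, ruxolitinib and tofacitinib. The share called lower was 28.2%, 20.9% and 26.8%. The part of these cell types in the STAT differences was not tested, and in whole skin fewer cells of a type and less RNA per cell cannot be told apart.

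STAT2 joins IRF9 in the complex that switches on interferon-stimulated genes. The Stat2 probe set 1421911_at was at 3.49, 3.92 and 4.53 (lowest, median and highest of 9) at day 0. At day 5 it read 3.21 and 3.11 under DMSO, 3.44 and 3.09 under ruxolitinib, and 2.80, 3.11 and 2.93 under tofacitinib. Every day-5 array was below every day-0 array, and all 16 were above the highest control. Since this probe set passed the filter only through day-0 arrays, the group in which it was high, its tests are given as a description. The difference from day 0 was -0.81 ± 0.20 (SE) for DMSO (adjusted p = 0.00449), -0.67 ± 0.20 for ruxolitinib (adjusted p = 0.0188) and -0.99 ± 0.17 for tofacitinib (adjusted p = 0.000355). With no filter, adjusted over all probe sets of 1 symbol, the differences were -0.80 (adjusted p = 0.00622), -0.67 (adjusted p = 0.0228) and -0.997 (adjusted p = 0.00049). Within mice it was lower at day 5 in 7 of 7, with changes of -1.32 to -0.39. The DMSO call was lost without mouse 3 (adjusted p = 0.0715), and the ruxolitinib call without mouse 4 (adjusted p = 0.0586), without mouse 6 (adjusted p = 0.198) and when each mouse was fitted as a fixed term (-0.56, adjusted p = 0.122). The other Stat2 probe set, 1450403_at, exceeded 2.43 in 6 of 16 arrays and gave no usable level.

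The Stat2 promoter is printed because it held 2 of the 3 matches to STAT-bound motifs found among the STAT promoters, close together. It covers the 250 bases before the RefSeq start, chr10:128270248-128270497 on the + strand of GRCm38.p6, with the matches in capitals.
Stat2: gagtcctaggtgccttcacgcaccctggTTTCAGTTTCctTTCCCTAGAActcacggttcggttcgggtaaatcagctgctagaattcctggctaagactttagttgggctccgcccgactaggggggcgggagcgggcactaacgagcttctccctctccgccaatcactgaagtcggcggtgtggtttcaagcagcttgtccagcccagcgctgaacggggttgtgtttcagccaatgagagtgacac
The first capitals match GAAANNGAAA, the core of the element bound by the STAT2 complex, on the opposite strand, starting 222 bases before the start. The next match TTCNNNNGAA, a wider-spaced form of the STAT dimer site, starting 210 bases before it. Both strands were searched in windows of 250 bases before to 50 after each start. GAAANNGAAA was in 3.44% of 32851 windows and in 2 of the 9 windows of the 6 genes (the other is a Stat4 window), TTCNNNNGAA in 6.95% and in 1 of 9, and TTCNNNGAA, the common STAT dimer site, in 8.30% and in 0 of 9. A match is a description of the letters and says nothing of binding in these samples.

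STAT3 is the main STAT of interleukin-6 type cytokines and of interleukin-22. Its 3 probe sets did not give the same answer in every treatment. The probe set with the highest mean, 1460700_at, was at 9.79, 9.96 and 10.33 (lowest, median, highest) at day 0, at 9.81 and 9.92 under DMSO, at 9.59 and 9.27 under ruxolitinib, and at 9.83, 9.39 and 9.67 under tofacitinib. The DMSO arrays lay within the day-0 range, both ruxolitinib arrays lay below it, and 1 of 3 tofacitinib arrays (mouse 7) overlapped it. The differences from day 0 were -0.12 ± 0.16 for DMSO (adjusted p = 0.547), -0.55 ± 0.16 for ruxolitinib (adjusted p = 0.0144) and -0.38 ± 0.13 for tofacitinib (adjusted p = 0.0302). The ruxolitinib call was lost without mouse 6 (-0.38, adjusted p = 0.232) and when each mouse was fitted as a fixed term (-0.43, adjusted p = 0.222). The tofacitinib call was lost without mouse 8 (-0.25, adjusted p = 0.205), without mouse 9 (adjusted p = 0.0819), without either DMSO array (adjusted p = 0.0514 for mouse 2 and for mouse 3), with array medians made equal (adjusted p = 0.0624) and without the 4 day-0 arrays of low adipocyte level described below (adjusted p = 0.109).

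The Stat3 probe set 1426587_a_at, whose suffix marks probes shared by several transcripts of 1 gene, ran from 6.83 through 7.23 to 7.72 at day 0. It read 6.36 and 6.67 under DMSO, 6.70 and 6.86 under ruxolitinib, and 6.60, 5.95 and 6.75 under tofacitinib. Only 1 of the 7 day-5 arrays, ruxolitinib of mouse 6, reached into the day-0 range, whose lowest array was that of the same mouse. The differences were -0.79 ± 0.22 for DMSO (adjusted p = 0.00992), -0.49 ± 0.22 for ruxolitinib (adjusted p = 0.101) and -0.87 ± 0.19 for tofacitinib (adjusted p = 0.00204). The DMSO call was lost without mouse 2 (adjusted p = 0.147) and when each mouse was fitted as a fixed term (adjusted p = 0.0546). The Stat3 probe set 1459961_a_at had the widest spread, from 6.37 to 8.02 at day 0, and its differences were -0.61 ± 0.38, -0.49 ± 0.38 and -0.89 ± 0.32, of which the last was called (adjusted p = 0.0325). That call was lost without mouse 9 (-0.48, adjusted p = 0.306), without either DMSO array (adjusted p = 0.058 for each) and with no filter (adjusted p = 0.0501), and the DMSO difference was 0.02 when each mouse was fitted as a fixed term.

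Under DMSO the 3 Stat3 probe sets thus differed: 1 was called lower and 2, 1460700_at among them, were not. Over the 16 arrays their levels correlated with Pearson's r of 0.49, 0.68 and 0.56 in the 3 pairs, which is a description of arrays that share groups and normalization. The fourth probe set, 1424272_at, exceeded the highest control in 1 array. Which transcripts each probe set reads was not determined, since probe sequences were not used here.

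STAT4 is made mainly by T and NK cells. Its only probe set, 1448713_at, lay between 1.55 and 2.93 over the 16 arrays and exceeded the highest control of 2.43 in 1 of them, the day-0 array of mouse 8. That array also had the highest mean of the T and NK cell markers, 7.24. The group means were 2.06 ± 0.40 (SD, n = 9) at day 0, 2.08 ± 0.37 (n = 2) under DMSO, 2.05 ± 0.06 (n = 2) under ruxolitinib and 2.13 ± 0.09 (n = 3) under tofacitinib. At this signal a change of Stat4 was not detectable.

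STAT5A and STAT5B are close relatives encoded by neighbouring genes on mouse chromosome 11, beside Stat3, and they moved in opposite directions under DMSO and tofacitinib. Stat5a, the form first known from mammary gland, read 10.48, 10.70 and 10.90 (lowest, median, highest) at day 0 in the probe set 1421469_a_at. At day 5 it was at 10.13 and 9.68 under DMSO, 9.75 and 9.75 under ruxolitinib, and 9.67, 9.71 and 9.08 under tofacitinib. No day-5 array reached the day-0 range. The difference was -0.80 ± 0.17 for DMSO (1.74-fold lower, adjusted p = 0.00198), -0.96 ± 0.17 for ruxolitinib (1.95-fold lower, adjusted p = 0.00081) and -1.22 ± 0.15 for tofacitinib (2.33-fold lower, adjusted p = 2.06e-05). The DMSO call was lost without mouse 3 (-0.57, adjusted p = 0.0752). The other Stat5a probe set, 1450259_a_at, exceeded 2.43 in 6 arrays, all of day 0. It was lower at day 5 in 7 of 7 mice and correlated with 1421469_a_at at r = 0.69 over 16 arrays and 0.40 over the 9 of day 0. With no filter it was called for tofacitinib (-0.42, limma, adjusted p = 0.0401), at day-5 levels that did not exceed the highest control.

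Stat5b, the form that growth hormone acts through most, read 8.73, 9.09 and 9.33 at day 0 in the probe set 1422103_a_at. At day 5 it was at 9.87 and 9.80 under DMSO, at 9.16 and 9.19 under ruxolitinib, and at 9.10, 9.57 and 9.89 under tofacitinib. Both DMSO arrays and those of mice 8 and 9 under tofacitinib lay above every day-0 array, while both ruxolitinib arrays and that of mouse 7 lay within the day-0 range. DMSO and day-0 arrays had no overlap, in either direction, in 48% of all probe sets, and DMSO was the lower in 25.9% of all. The difference from day 0 was 0.80 ± 0.19 for DMSO (1.74-fold higher, adjusted p = 0.0033), 0.13 ± 0.19 for ruxolitinib (adjusted p = 0.631) and 0.49 ± 0.16 for tofacitinib (1.40-fold higher, adjusted p = 0.0209). When each mouse was fitted as a fixed term, the DMSO and tofacitinib calls were lost (0.81, adjusted p = 0.0671, and 0.55, adjusted p = 0.0943), and the ruxolitinib difference was -0.03. The tofacitinib call was also lost without mouse 8 (adjusted p = 0.0747), without mouse 9 (0.30, adjusted p = 0.189) and without the 4 day-0 arrays of low adipocyte level (0.31, adjusted p = 0.142).

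A dimmer Stat5b probe set, 1422102_a_at, was above the highest control in all 16 arrays but above 4 in only 1, so it did not pass the filter. It ran from 2.61 to 3.35 at day 0 and read 3.93 and 3.77 under DMSO, 3.37 and 3.64 under ruxolitinib, and 3.30, 3.35 and 4.09 under tofacitinib. It was higher at day 5 in 7 of 7 mice, and with no filter its difference was 0.73 ± 0.20 for DMSO (adjusted p = 0.012), 0.38 ± 0.20 for ruxolitinib (adjusted p = 0.189) and 0.46 ± 0.17 for tofacitinib (adjusted p = 0.0484). The 2 Stat5b probe sets correlated with r = 0.84 over the 16 arrays and 0.53 over the 9 of day 0.

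Set side by side in each mouse, the Stat5a and Stat5b changes were -0.62 and 0.54 in mouse 2 and -0.89 and 1.08 in mouse 3, both given DMSO. They were -1.15 and 0.03 in mouse 4 and -0.94 and -0.08 in mouse 6, both given ruxolitinib. Under tofacitinib they were -1.20 and 0.01 in mouse 7, -0.98 and 0.58 in mouse 8 and -1.42 and 1.06 in mouse 9. Stat5a was lower in 7 of 7 mice, and the Stat5b change exceeded the Stat5a change in every mouse, by 0.86 to 2.48.

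**Figure D2:**
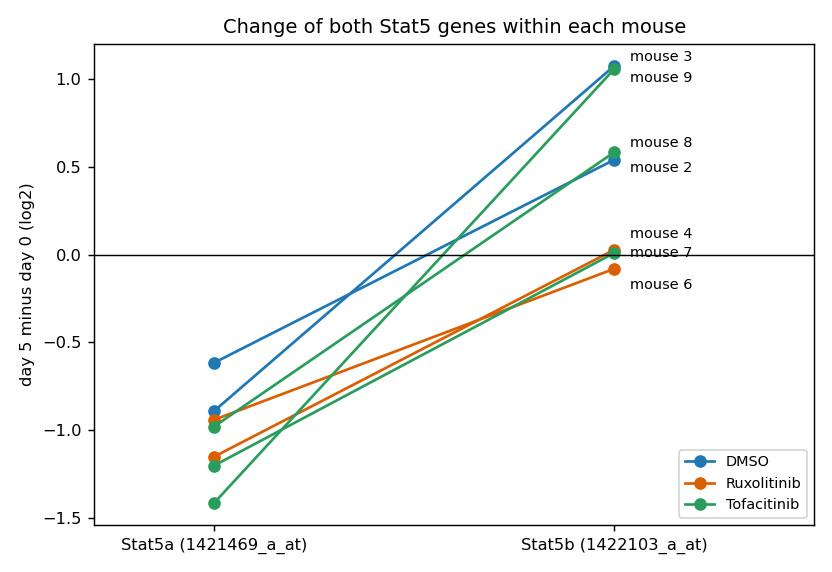
Change from day 0 to day 5 in log2 units for Stat5a (left) and Stat5b (right), with 1 line per mouse coloured by treatment. All 7 Stat5a points lie below 0, and the Stat5b points lie near 0 in mice 4, 6 and 7 and between 0.54 and 1.08 in mice 2, 3, 8 and 9.

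The upstream sequences of both genes are shown because the pair shares a stretch within them. A local alignment of the RefSeq windows found 55 bases upstream of a start of each gene, of which 49 (89.1%) were identical and are in capitals. The Stat5a stretch is chr11:100860418-100860472 on the + strand and the Stat5b stretch chr11:100822573-100822627 on the - strand of GRCm38.p6.
Stat5a: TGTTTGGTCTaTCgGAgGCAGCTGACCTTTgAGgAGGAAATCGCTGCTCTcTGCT
Stat5b: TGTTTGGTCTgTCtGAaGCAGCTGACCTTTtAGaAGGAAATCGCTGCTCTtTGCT
Each gene has 2 windows in the RefSeq table, and the stretch lies before 1 start of each. Which start is used in skin was not measured by the arrays. Because the coding sequences are also alike, cross-hybridization between the probe sets could not be checked without probe sequences.

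STAT6 carries the signals of interleukin-4 and interleukin-13. The probe set 1426353_at read 10.24, 10.43 and 10.72 (lowest, median, highest) at day 0, then 9.56 and 9.20 under DMSO, 9.82 and 9.75 under ruxolitinib, and 10.01, 9.53 and 9.54 under tofacitinib. All 7 day-5 arrays were below all 9 day-0 arrays, as in 12.4% of all probe sets. The difference was -1.09 ± 0.17 for DMSO (2.12-fold lower, adjusted p = 0.000178), -0.68 ± 0.17 for ruxolitinib (1.60-fold lower, adjusted p = 0.00704) and -0.77 ± 0.14 for tofacitinib (1.71-fold lower, adjusted p = 0.000664). The ruxolitinib call was lost without mouse 4 (adjusted p = 0.0535), without mouse 6 (adjusted p = 0.0858) and when each mouse was fitted as a fixed term (-0.64, adjusted p = 0.183).

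The other Stat6 probe set, 1421708_a_at, ran from 5.57 through 6.32 to 6.79 at day 0. It read 4.68 and 4.62 under DMSO, 4.70 and 4.62 under ruxolitinib, and 5.38, 4.45 and 5.16 under tofacitinib. Again no day-5 array reached the day-0 range, and the differences were -1.52 ± 0.27 (adjusted p = 0.000407), -1.53 ± 0.27 (adjusted p = 0.000605) and -1.22 ± 0.22 (adjusted p = 0.000638). The levels of both probe sets correlated with r = 0.88 over 16 arrays, a value that spans the change from day 0 to day 5, and with r = 0.30 over the 9 day-0 arrays. Each was lower at day 5 in 7 of 7 mice.

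**Figure D3:**
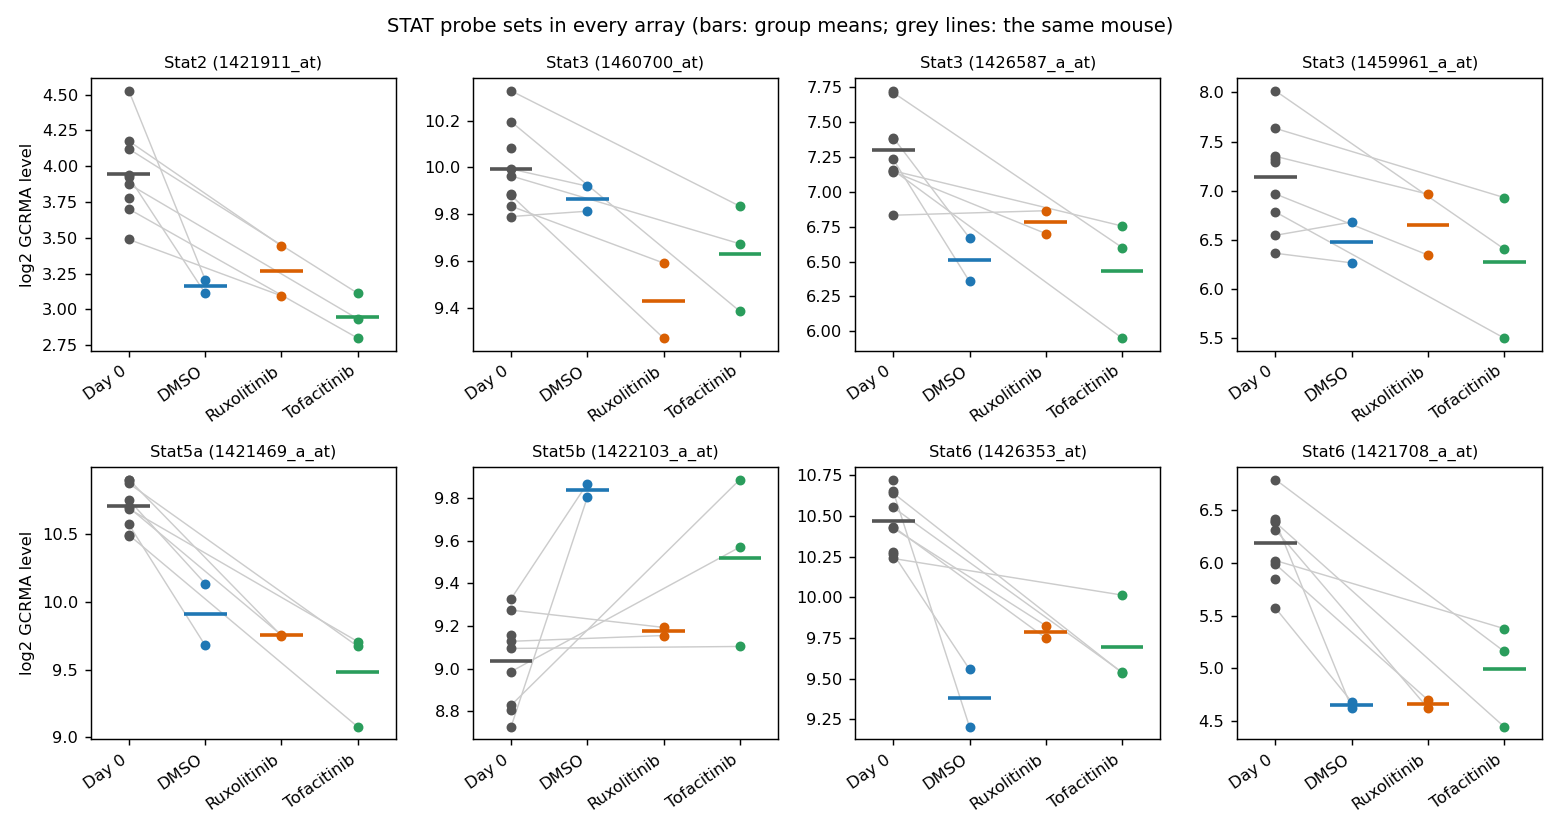
Level in log2 GCRMA units of the 8 STAT probe sets that passed the filter, with 1 point per array, a bar for the group mean and grey lines joining the arrays of 1 mouse; each panel has its own vertical scale. In Stat2, Stat5a and both Stat6 panels every day-5 point lies below every day-0 point, as in 12.4% of all probe sets. In the Stat5b panel both DMSO points lie above the day-0 points. DMSO and day-0 arrays had no overlap, in either direction, in 48% of all probe sets, and DMSO was the lower in 25.9% of all.

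None of the 8 probe sets was called when the day-5 groups were compared with each other. The called share of all probe sets was 1.01% for ruxolitinib against DMSO, 0.0667% for tofacitinib against DMSO, 0.734% for the mean of both inhibitors against DMSO and 0.276% for tofacitinib against ruxolitinib. At an unadjusted p under 0.05 the counts were 1, 0, 1 and 0 of 8 in limma, and Stat5b was the 1 in both. Over all probe sets the shares at that threshold were 15.4%, 8.04%, 13.2% and 6.96%, so 1 of 8 is near the background and is given as a value only. The Stat5b ruxolitinib arrays were at 9.16 and 9.19 and its DMSO arrays 9.87 and 9.80, a difference of -0.67 with a 95% interval of -1.20 to -0.15 (unadjusted p = 0.0145, adjusted p = 0.198). Of all probe sets 49.5% had no overlap between these 2 groups of 2 arrays. For the mean of both inhibitors the Stat5b difference from DMSO was -0.49 (-0.93 to -0.05, adjusted p = 0.316), and for tofacitinib alone -0.31 (-0.79 to 0.16).

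For Stat6 the intervals of the differences from DMSO in 1426353_at were -0.06 to 0.88 for ruxolitinib and -0.11 to 0.74 for tofacitinib, and for Stat5a -0.64 to 0.31 and -0.86 to 0.01. For Stat3 in 1460700_at they were -0.86 to 0.00 and -0.65 to 0.14. With 2 or 3 arrays a group, the missed threshold does not show that drug and vehicle skin were alike.

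Tofacitinib and ruxolitinib, which differ in the ring joined to their shared core, gave STAT levels whose differences had intervals that all held 0. Tofacitinib minus ruxolitinib was -0.26 (-0.70 to 0.18) for Stat5a, 0.36 (-0.11 to 0.84) for Stat5b, -0.33 (-0.83 to 0.18) for Stat2, -0.10 (-0.52 to 0.33) for Stat6 and 0.18 (-0.22 to 0.57) for Stat3, each in its probe set of highest mean. The Stat5a arrays did not overlap, with 9.08 to 9.71 under tofacitinib and 9.75 in both ruxolitinib arrays, but the gap was smaller than the spread of the tofacitinib arrays. Of all probe sets 18.2% had no overlap between these 2 groups, and 9.15% had none with tofacitinib lower. The doses were not given, so the drugs were compared as applied.

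The day-0 arrays, all from untreated skin, differed among themselves in 1 probe set each of 3 genes. In mice 1, 3, 8 and 9 the mean of the 4 adipocyte markers was 5.57, 7.75, 8.01 and 8.35, and in the other 5 mice it was 9.68 to 10.52. In the probe sets of highest mean, the same 4 mice had the 4 highest Stat6 levels (10.55 to 10.72, against 10.24 to 10.43), the 4 lowest Stat5a levels (10.48 to 10.69, against 10.70 to 10.90) and the 4 lowest Stat5b levels (8.73 to 8.99, against 9.09 to 9.33). The other probe sets did not order the mice this way. In the Stat6 probe set 1421708_a_at mouse 1 was second lowest at 5.85 and mouse 5, at 6.42, was above mice 3 and 8. In the dim Stat5b probe set 1422102_a_at mice 8 and 9 (3.33 and 3.22) were above mice 6 and 7 (3.09 and 3.01). Across the 9 arrays the adipocyte mean correlated with Stat6 1426353_at at r = -0.88 (Spearman's rho -0.82, and r = -0.83 over 7 arrays without mice 1 and 3), with Stat5a at 0.81 (rho 0.82, and 0.70) and with Stat5b at 0.83 (rho 0.90, and 0.84). With 1421708_a_at of Stat6 it was -0.12 (rho -0.27, and -0.69), and with 1422102_a_at of Stat5b 0.73 (rho 0.68, and -0.11). For Stat3 1460700_at it was -0.43 (rho -0.77, and -0.54) and for Stat2 0.08 (rho 0.17, and 0.12). These are descriptions of 9 arrays, and other tissue markers varied too. Stat6 1426353_at correlated at -0.82 with the mean of the skeletal muscle markers and at -0.82 with that of the endothelial markers. For Stat5b 1422103_a_at the basal keratinocyte mean gave r = -0.89, and for Stat5a the endothelial mean gave 0.83 (rho 0.92), both farther from 0 than the adipocyte mean.

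Stat5a and Stat5b, in their probe sets of highest mean, rose and fell together among the day-0 arrays (r = 0.71 over 9) although they changed in opposite directions from day 0 to day 5 under DMSO and tofacitinib. Stat5a and Stat6 1426353_at did the reverse, with r = -0.80 among the day-0 arrays while both were lower at day 5 in 7 of 7 mice. In that probe set of Stat5b the rises were 0.54 or more in mice 2, 3, 8 and 9, of which 3 had a low adipocyte mean at day 0. They were 0.03 or less in mice 4, 6 and 7, whose adipocyte mean was 9.68 or more. A rise subtracts the day-0 level, which was among the lowest in mice 3, 8 and 9, so this split is no separate finding. The dim Stat5b probe set 1422102_a_at did not split the mice this way. It rose by 0.58, 0.78, 0.02 and 0.87 in mice 2, 3, 8 and 9, and by 0.14, 0.55 and 0.30 in mice 4, 6 and 7. Without the 4 arrays of low adipocyte level, a setting chosen after seeing the data, 6, 5 and 6 of the 8 probe sets were called for DMSO, ruxolitinib and tofacitinib, where 39.7%, 30.1% and 36.7% of all probe sets were. The part of the biopsy's make-up in the differences was otherwise not tested.

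**Figure D4:**
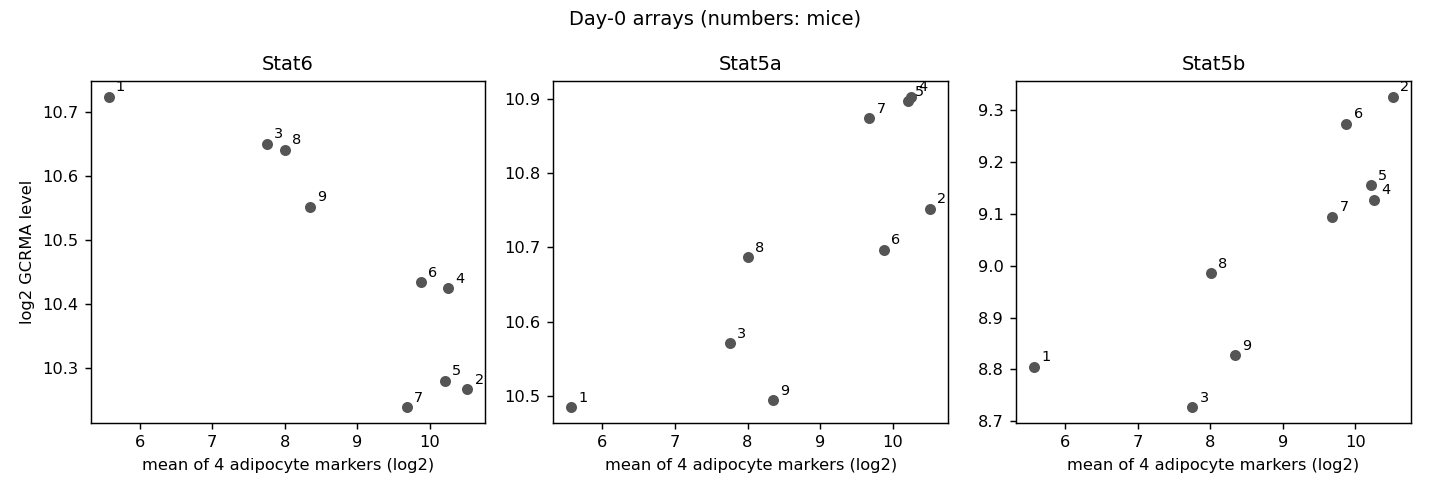
Level in log2 GCRMA units of Stat6, Stat5a and Stat5b in the 9 day-0 arrays, against the mean of 4 adipocyte markers in the same array; numbers are mice. Mice 1, 3, 8 and 9 lie at the left with the 4 highest Stat6 and the 4 lowest Stat5a and Stat5b levels in the probe sets of highest mean, which are those drawn.

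By a rule of likeness, the 3 genes whose levels followed each member most closely over the 16 arrays were found. For Stat2 they were Trim21 (r = 0.94), an antibody receptor induced by interferon, Parp12 (0.94) and Apol7a (0.93). For Stat3 they were Lcp1 (0.92), an actin-bundling protein of leukocytes, Cd74 (0.90) and H2-Ab1 (0.89), which serve antigen presentation by MHC class II. For Stat5a they were Tmem184a (0.96), the Wnt receptor Fzd2 (0.96) and Yme1l1 (0.95), a mitochondrial protease. For Stat5b they were Map4 (0.99), a microtubule-associated protein, Rab28 (0.96) and Pdk1 (0.96), a kinase of pyruvate dehydrogenase. For Stat6 they were Rgs19 (0.98), a regulator of G-protein signals, Ephb6 (0.98) and Nipal2 (0.98). In the 9 day-0 arrays alone these 15 correlations were 0.63 to 0.96, with 0.96 for Map4 with Stat5b and 0.94 for Rgs19 with Stat6. The genes were picked as the highest of all over the 16 arrays, whose values span the change from day 0 to day 5. The 9 are part of those 16, so their correlations are no separate check.

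Of 78 genes listed around the STATs (kinases, receptors, inhibitors, nuclear partners and targets), 59 were tested. At day 5, 20 were called lower and 8 higher for DMSO, 20 and 4 for ruxolitinib and 23 and 8 for tofacitinib. Over all 12087 tested genes, each by its probe set of highest mean, 49.7%, 33.1% and 48.8% were called for DMSO, ruxolitinib and tofacitinib. The share called lower was 28.2%, 20.9% and 26.8% and the share called higher 21.5%, 12.1% and 21.9%. Lower calls were thus also the more frequent over all genes. The counts of the smaller lists below are to be read beside the same shares. The medians of the 59 were -0.01, -0.09 and -0.15, against -0.05, -0.03 and -0.02 over all genes. None was called between day-5 groups. Among the kinases, Tyk2, which serves the interferon and interleukin-12 receptors, fell in each treatment (-1.73 ± 0.21, -1.35 ± 0.21 and -1.47 ± 0.18), whereas Jak1 and Jak2 were not called, with differences between -0.21 and 0.11. Jak3 was not tested, as it did not pass the filter.

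Both STAT6 receptor chains were called lower in each treatment: Il4ra differed by -1.43, -1.68 and -2.08, and Il13ra1 by -1.34, -1.06 and -1.33, for DMSO, ruxolitinib and tofacitinib. Of 4 STAT2 receptor chains 2 fell in each. Ifnlr1, the chain specific to interferon lambda, went from a mean of 7.58 at day 0 to 3.90, 4.82 and 4.77 (-3.68 ± 0.31, -2.73 ± 0.31 and -2.83 ± 0.27), and Ifnar1 differed by -1.05, -1.03 and -0.87. Among the 6 tested STAT3 receptor chains, 2, 3 and 4 fell and 1, 0 and 2 rose. Il22ra1, the keratinocyte receptor of interleukin-22, fell in all (-2.38 ± 0.25, -1.26 ± 0.25 and -0.995 ± 0.215), and the oncostatin M receptor Osmr fell in the inhibitor groups (-1.01 and -0.93) and was at -0.41 ± 0.19 under DMSO (adjusted p = 0.0806). Of 3 tested STAT5 receptor chains none fell. The growth hormone receptor Ghr rose under DMSO (0.39 ± 0.15) and tofacitinib (0.33 ± 0.13), and its ruxolitinib difference was 0.33 ± 0.15 (adjusted p = 0.105). Il12rb2, the 1 tested STAT4 receptor chain, was called lower under DMSO (-0.91 ± 0.35, adjusted p = 0.0432), and its differences were -0.85 ± 0.35 for ruxolitinib (adjusted p = 0.0765) and -0.56 ± 0.30 for tofacitinib (adjusted p = 0.134).

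Of 16 tested inhibitors of the pathway, 4, 5 and 5 fell and 3, 2 and 1 rose. Over all genes 28.2%, 20.9% and 26.8% were called lower and 21.5%, 12.1% and 21.9% higher. The lower counts are near those shares, and the counts are given as values only. Those that fell in each treatment were Usp18, which blocks the interferon receptor (-3.17 ± 0.36, -4.19 ± 0.36 and -4.22 ± 0.31), the phosphatase Ptpn6 (-2.28, -2.10 and -1.80), Pias3, a binding inhibitor of STAT3 (-1.71, -1.19 and -1.50), and Cish, a STAT5-induced inhibitor (-2.07, -2.34 and -1.74). Socs3, the STAT3-induced inhibitor, fell under ruxolitinib (-1.85 ± 0.29) and tofacitinib (-1.80 ± 0.25), and was at -0.43 ± 0.29 under DMSO (adjusted p = 0.244). The differences of Socs3 between inhibitor and vehicle skin were not called. Usp18 had a mean of 6.80 at day 0 and of 3.65, 2.60 and 2.62 at day 5. It may have passed the filter through day-0 arrays alone, so its fall is given as a description. The phosphatase Ptpn2 was the inhibitor that rose in each (0.41, 0.57 and 0.43). Of the 4 nuclear partners, Irf9 (-0.90, -1.002 and -1.19) and Nmi (-0.85, -1.25 and -0.92) fell in each treatment, and the coactivators Crebbp and Ep300 were not called.

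Of 6 tested STAT2 targets, Oas1a (-1.35, -1.63 and -1.67) and Irf7 (-1.07, -1.02 and -1.26) fell in each treatment and Ifit1 under tofacitinib (-1.85 ± 0.54). Of 8 STAT3 targets 1, 2 and 2 fell and 1 rose in each comparison: Lcn2, an antimicrobial iron-binding protein, rose under ruxolitinib (0.93 ± 0.28) and tofacitinib (0.83 ± 0.24), and Fos rose under DMSO (1.97 ± 0.68). Of 4 tested STAT6 targets 2, 1 and 2 fell and 1, 1 and 2 rose. Among them the chemokine Ccl22 fell in each (-1.45, -1.12 and -1.52). The macrophage receptor Mrc1, which is also in the macrophage marker list, rose in each (1.75, 2.10 and 1.36). The tested STAT4 target Il18r1 fell in each (-0.95, -1.20 and -1.24). Of 5 tested STAT5 targets Cish fell in each, Pim1 fell under DMSO (-0.50 ± 0.17), and Igf1 rose under tofacitinib (1.73 ± 0.64, adjusted p = 0.0357).

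**Figure D5:**
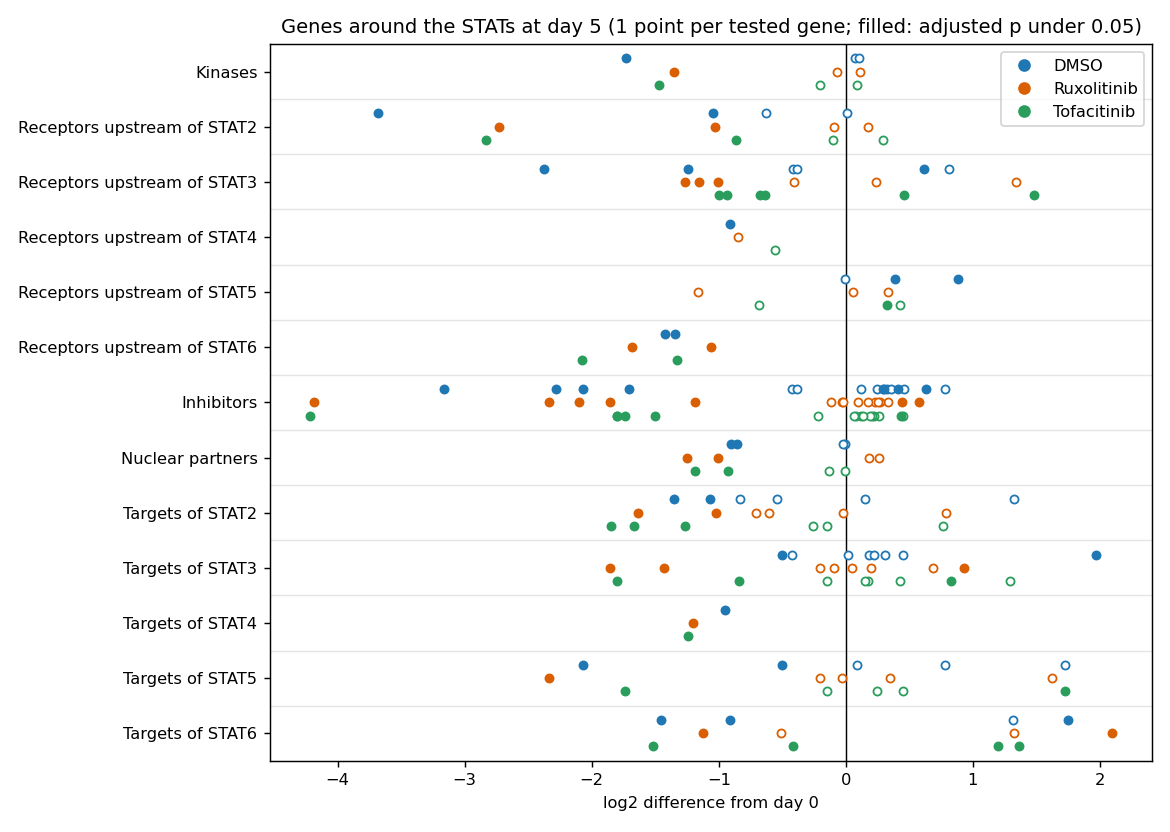
Difference from day 0 in log2 units of the 59 tested genes around the STATs, grouped by role and coloured by treatment, with 1 point per gene in each treatment; filled points had an adjusted p under 0.05, and a gene in 2 lists appears in both. Both STAT6 receptor chains lie left of 0 in each treatment, and the inhibitors spread from -4.22 to 0.78.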

How the data were processed

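RNA from whole skin was amplified (NuGEN Ovation kit) and hybridized to Affymetrix mouse arrays, per the labels' protocols. The deposited log2 values per probe set were made by the authors with GCRMA, per the submitters' processing notes. Its version is not given in the sources used here, nor is it stated whether the 16 arrays went through it together. GCRMA subtracts a modelled background, so low values carry little information. Depth is not defined for arrays, and the number of arrays limits the precision.

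Of 45101 probe sets, 34958 had 1 gene symbol, 932 several and 9211 none in the platform annotation. The 20992 with 1 symbol and a log2 value above 4 in at least 2 arrays were fitted with limma 3.58.1 (R 4.3.3). Means of the 4 groups were estimated, with the mouse as a random block (consensus correlation 0.0779), with Benjamini-Hochberg adjustment within each of 7 comparisons. The p-values measure the spread between these arrays. Code was tested on simulated data. The labels place both biopsies on the same mouse, so the arrays are paired by design. In 7 pairs the deviations from group means correlated at -0.24 to 0.19, over 0.1 in 2.

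The genes and lists were chosen with earlier results of these data known. A listed gene is given by its kept probe set of highest mean. Named by rule were all members, the 3 genes most like each in Pearson's r over 16 arrays, and the 4 genes of smallest p among the pathway lists in each comparison against day 0. Other pathway genes were named after their values were seen. Alternatives covered the block, samples, filter, normalization, probe set rule, single arrays left out and, chosen after seeing the data, 4 day-0 arrays of low adipocyte level (mean under 9). Promoters were read from a RefSeq table of GRCm38.p6, searched on both strands and aligned with Biopython 1.88.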

Additional observations from a re-analysis of the deposited data

Results flagged for a closer look

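In the 9 day-0 arrays the dim Stat3 probe set 1424272_at was far from the other arrays in mouse 7, at 2.50, where the other 8 lay lower, and the dim Stat5b probe set 1422102_a_at in mouse 1, at 2.61, where the other 8 lay higher. Each had a gap to its nearest neighbour above the critical value of Dixon's test for 9 samples. Of 13 day-0 sets examined 2 stood out in this way, and chance gives about 1 in 20. Neither probe set passed the filter, so no call among the 8 rests on them. With no filter, the Stat5b probe set was called for DMSO (limma, adjusted p = 0.012) and tofacitinib (adjusted p = 0.0484). Those calls use the day-0 array of mouse 1.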

How the results depend on the processing

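Stat5a, both Stat6 probe sets and Stat2 kept a lower level at day 5 than at day 0 in each treatment under every alternative that held them. Some calls were lost, as given beside the genes. A stricter filter at 6 did not hold Stat2, whose highest value was 4.53. Stat2 passed the main filter only through day-0 arrays, the group in which it was high, so its place here is a description. Across the 3 comparisons with day 0 the threshold was crossed most often by Stat3 and Stat5b, and between day-5 groups no probe set was called under any alternative. With the mouse as a fixed replicate block, to which mice 1 and 5 with a single array add nothing, 4, 2 and 7 of the 8 were called for DMSO, ruxolitinib and tofacitinib, against 6, 5 and 8, while the share of all probe sets went from 48.1%, 33.1% and 48.1% to 27.0%, 10.6% and 36.8%. Requiring 1 log2 unit as well left 2, 1 and 2. With single arrays left out the counts ranged from 4 to 6 for DMSO, 2 to 5 for ruxolitinib and 5 to 8 for tofacitinib. Signs turned only in differences that were not called. With the fixed block these were, against day 0, Stat3 1459961_a_at for DMSO (0.0185) and Stat5b for ruxolitinib (-0.027). Against DMSO they were Stat2 for tofacitinib (0.11) and Stat2 for both inhibitors (0.31), and against ruxolitinib Stat3 for tofacitinib (-0.10). With probe sets averaged per gene they were Stat3 for ruxolitinib against DMSO (0.0001), and Stat3 (-0.19) and Stat6 (0.11) for tofacitinib against ruxolitinib. Without the 4 day-0 arrays of low adipocyte level they were Stat5b for ruxolitinib against day 0 (-0.0368) and Stat2 for both inhibitors against DMSO (0.0366). With single arrays left out, Stat5a for ruxolitinib against DMSO ranged from -0.38 to 0.0817, Stat2 for both inhibitors against DMSO from -0.12 to 0.0606, and Stat3 for tofacitinib against ruxolitinib from -0.0048 to 0.32. The causes were not tested, and a lone array left in a group was assumed to vary like the other groups.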
